A study of Mus musculus with 6 samples.

Results

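Expression of 10 genes that mark the endothelium of blood vessels (Cdh5, Pecam1, Esam, Cldn5, Tie1, Eng, Vwf, Emcn, Egfl7 and Sparcl1) was examined in F4/80+ cells of implanted tumours. They were listed by name as genes known from vascular endothelium, with no threshold on their values, but earlier results of these data were known when the list was made. All 10 were measured, each by 1 probe set that the platform table pairs with that symbol alone, of 19938 genes tested in all. The cells came from tumours implanted in wild type mice (3 arrays) or in St2-/- mice (3 arrays), the latter lacking ST2, the receptor for the cytokine IL-33. F4/80, by which the cells were isolated, marks macrophages of the mouse. The genotype is that of the host mouse. The labels name neither the tumour, its own genotype, nor the strain, sex or age of the mice, and no treatment is given. Nothing in them tells whether each sample came from its own mouse, and p-values here therefore reflect the spread among these arrays, which could be purely technical. Levels are RMA values as deposited, in log2 units (a difference of 1 is 2-fold), differences are St2-/- minus wild type, and a gene was called when its limma p-value, adjusted by Benjamini-Hochberg over all genes, was under 0.05.

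Endothelial cells form the inner lining of blood vessels. They hold to one another through junction proteins such as VE-cadherin (Cdh5), claudin-5 (Cldn5), ESAM and PECAM-1, carry receptors that keep the vessel wall stable or let it sprout (Tie1, endoglin), and store or secrete proteins such as von Willebrand factor, EGFL7 and SPARCL1. Some of these proteins are not restricted to the endothelium: PECAM-1 is also found on leukocytes and platelets, endoglin on activated monocytes and macrophages, and von Willebrand factor and ESAM in platelets. In tumours, macrophages lie close to vessels and take part in vessel growth.

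The arrays were alike within a genotype. Their medians over the genes tested were 5.91, 5.88 and 5.93 in wild type and 5.82, 5.82 and 5.81 in St2-/-, so they did not overlap between genotypes. Over genes the arrays correlated at 0.996 to 0.998 (Pearson) inside a genotype and at 0.986 to 0.988 across genotypes. Levels of 9 measured macrophage genes were looked at beside the labelled identity. No detection call was made, so they do not show how pure the cells were. The fibroblast marker Dcn averaged 11.34 in wild type and 8.01 in St2-/-. Adgre1, the gene of F4/80, averaged 11.32 ± 0.04 in wild type and 11.63 ± 0.04 in St2-/- (SD, n = 3 each), and Csf1r, the receptor for the macrophage growth factor CSF-1, averaged 12.07 ± 0.02 and 12.11 ± 0.04 (SD, n = 3 each). Adgre1, the gene of the marker used for isolation, was thus called higher in St2-/- (0.31, limma adjusted p = 0.00631). Csf1r was not called (limma adjusted p = 0.645). The targeted gene could not be looked up by symbol in the platform table, so the genotype was not checked against its level.

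The 10 endothelial genes did not all move one way. In St2-/- samples 8 of them fell and 2 rose, and in every one of the 10 the values of the 2 genotypes did not overlap. Over all genes tested, 20.8% were called, 10% lower and 10.7% higher, and 36.4% had groups that did not overlap (18.3% with St2-/- below and 18.1% with St2-/- above). The median difference of the 10 genes was -0.50, against -0.02 over all genes. Falls ranged in size from 0.28 (Cldn5) to 1.73 (Sparcl1), and 4 genes (Sparcl1, Cdh5, Emcn and Vwf) fell by more than 2-fold. The genes that rose were Pecam1 and Eng. Because the RNA of each sample comes from many cells together, fewer endothelial cells among the sorted cells and less of these RNAs per cell cannot be told apart.

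**Figure D1:**
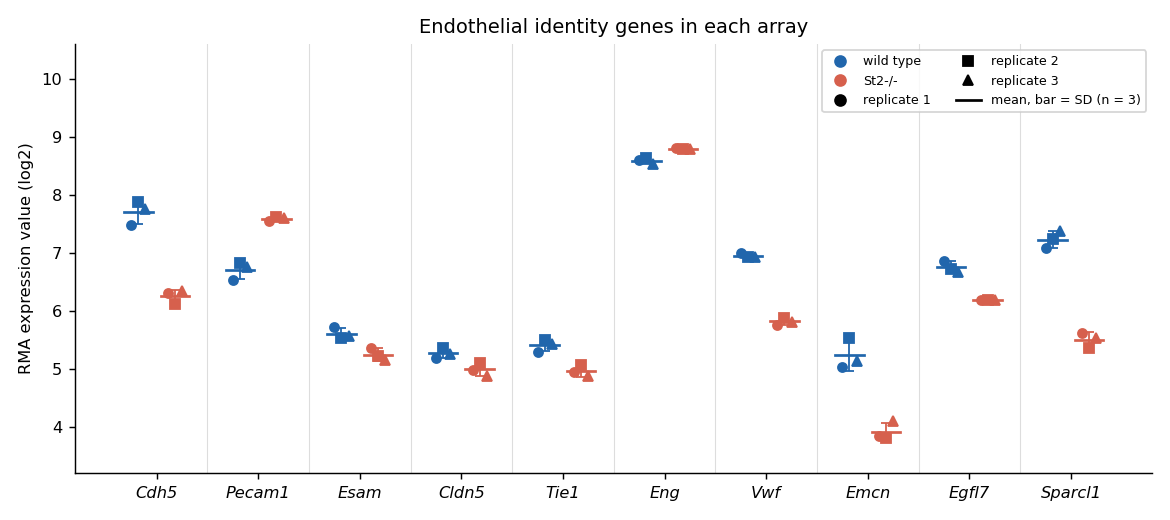
Log2 RMA values (y axis) of the 10 endothelial genes (x axis) in each array, wild type in blue and St2-/- in red, with the marker shape giving the replicate, the horizontal line the group mean and the bar the SD (n = 3). The St2-/- points lie below the wild type points in 8 genes and above them in Pecam1 and Eng, and the gap between the groups ranges from 0.09 (Cldn5) to 1.47 (Sparcl1).

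The junction genes went in both directions. Cdh5 encodes VE-cadherin, the adhesion molecule of endothelial adherens junctions. In order of replicate it read 7.48, 7.88 and 7.76 in wild type and 6.30, 6.12 and 6.33 in St2-/-. The lowest wild type value lay 1.15 above the highest St2-/- value. Cdh5 fell by 1.46 ± 0.11 (SE) on the log2 scale, or 2.74-fold (limma adjusted p = 1.14e-05, 95% confidence interval -1.69 to -1.22). Pecam1, an adhesion molecule of endothelial cell contacts, read 6.52, 6.82 and 6.76 in wild type and 7.55, 7.61 and 7.60 in St2-/-. Here all St2-/- arrays were the higher ones, and within wild type replicate 1 was the lowest, as it was for Cdh5. Pecam1 rose by 0.89 ± 0.08 (SE), or 1.85-fold (limma adjusted p = 6.35e-05, interval 0.70 to 1.08).

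Esam and Cldn5 moved less. Esam, an immunoglobulin-like adhesion molecule of endothelial tight junctions, read 5.71, 5.53 and 5.56 in wild type and 5.36, 5.22 and 5.14 in St2-/-, a gap of 0.17 between the groups. It fell by 0.36 ± 0.08 (SE), or 1.28-fold (limma adjusted p = 0.0111), and its adjusted p was 0.0503 without St2-/- replicate 3. Cldn5, which encodes the tight junction protein claudin-5, read 5.19, 5.36 and 5.26 in wild type and 4.98, 5.10 and 4.88 in St2-/-. The groups were separated by 0.09 only, less than the SD within St2-/- (0.11). Cldn5 fell by 0.28 ± 0.08 (SE), or 1.22-fold (limma adjusted p = 0.0301). Its call did not hold in 7 of 13 alternative settings, with an adjusted p of 0.113 when each array was centred on its median, 0.142 after cyclic loess and 0.073 when all rows of the table were tested. It was also lost on leaving out 1 array, with adjusted p-values of 0.0881 and 0.0629 without wild type replicates 2 and 3, and of 0.0816 and 0.117 without St2-/- replicates 1 and 3.

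The receptor genes Tie1 and Eng went in opposite directions. Tie1, a receptor tyrosine kinase of endothelial cells that acts beside the angiopoietin receptor TIE2, read 5.29, 5.49 and 5.43 in wild type and 4.94, 5.07 and 4.87 in St2-/-. Every St2-/- array lay below every wild type array, by at least 0.22. Tie1 fell by 0.44 ± 0.08 (SE), or 1.36-fold (limma adjusted p = 0.00346). Eng encodes endoglin, a co-receptor for ligands of the TGF-beta and BMP family. It read 8.59, 8.64 and 8.53 in wild type and 8.80, 8.78 and 8.78 in St2-/-, so that the groups lay 0.14 apart. Eng rose by 0.20 ± 0.06 (SE), or 1.15-fold, at an adjusted p close to the threshold (limma adjusted p = 0.0476, interval 0.06 to 0.34). That call did not hold in 10 of 14 alternative settings. Leaving out any of the 6 arrays ended it, with adjusted p-values of 0.0944, 0.0539 and 0.119 without wild type replicates 1, 2 and 3, and of 0.122, 0.105 and 0.12 without St2-/- replicates 1, 2 and 3. After cyclic loess the difference was 0.11 (adjusted p = 0.231).

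The remaining 4 genes, Vwf, Emcn, Egfl7 and Sparcl1, fell. Vwf encodes von Willebrand factor, the clotting protein stored by endothelial cells and platelets. It read 7, 6.93 and 6.92 in wild type and 5.76, 5.88 and 5.81 in St2-/-, a gap of 1.04 beside SDs of 0.04 and 0.06. Vwf fell by 1.13 ± 0.06 (SE), or 2.19-fold (limma adjusted p = 2.32e-06). Emcn encodes endomucin, a sialomucin of capillary and venous endothelium. It had the widest spread of the 10 genes within wild type, with values of 5.02, 5.53 and 5.13 against 3.84, 3.81 and 4.09 in St2-/-. Emcn nevertheless fell by 1.31 ± 0.13 (SE), or 2.49-fold (limma adjusted p = 8.42e-05).

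Egfl7, which encodes a protein secreted by endothelial cells into the vascular matrix, read 6.86, 6.72 and 6.66 in wild type. The St2-/- values of Egfl7 were nearly identical, at 6.18, 6.18 and 6.19. It fell by 0.56 ± 0.07 (SE), or 1.48-fold (limma adjusted p = 0.00035). Sparcl1, a matricellular protein related to SPARC, had the greatest fall of the 10 genes. Its values were 7.08, 7.23 and 7.37 in wild type and 5.61, 5.36 and 5.52 in St2-/-. The groups lay 1.47 apart, and Sparcl1 fell by 1.73 ± 0.09 (SE), or 3.32-fold (limma adjusted p = 1.59e-06).

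The microRNA gene Mir126a lies inside Egfl7 and has a probe set of its own, which was looked at after the values of Egfl7 were known. RefSeq places the mature miR-126a-3p at chr2:26591402-26591423 (GRCm38.p6, plus strand), within the span of Egfl7. It is shown here with its seed (bases 2 to 8) in capitals, since the seed pairs with target RNAs.
miR-126a-3p: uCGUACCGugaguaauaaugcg
The Mir126a probe set was at the 1.15th percentile of mean value over the genes tested and read 3.04, 2.92 and 2.95 in wild type and 2.83, 2.90 and 2.79 in St2-/-. The difference of -0.13 ± 0.07 (SE) was not called (limma adjusted p = 0.208), and an array for long RNAs does not measure the mature microRNA.

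Promoter sequences from RefSeq (GRCm38.p6), from 250 bases before to 50 bases after a start site, were matched by symbol for 5 of the 10 genes: Eng, Tie1, Cldn5, Emcn and Egfl7. Vwf, Pecam1, Cdh5, Esam and Sparcl1 were not matched. Endothelial promoters are known to be bound by ETS factors, whose sites share a purine-rich core, so the windows were searched on both strands for the ETS word CAGGAA and for its close relative CCGGAA. Words of other families known from endothelium were AGATAA for the factors of the GATA family, ACAAT for those of the SOX family, and CACCC for those of the KLF family. The windows of Emcn and Tie1, which fell, Eng, which rose, and Cldn5, which fell without holding an ETS word, are shown so that they can be compared. Capitals mark the ETS word CAGGAA on either strand, so that a match on the opposite strand reads TTCCTG.
Emcn promoter, chr3:137340828-137341127, plus strand: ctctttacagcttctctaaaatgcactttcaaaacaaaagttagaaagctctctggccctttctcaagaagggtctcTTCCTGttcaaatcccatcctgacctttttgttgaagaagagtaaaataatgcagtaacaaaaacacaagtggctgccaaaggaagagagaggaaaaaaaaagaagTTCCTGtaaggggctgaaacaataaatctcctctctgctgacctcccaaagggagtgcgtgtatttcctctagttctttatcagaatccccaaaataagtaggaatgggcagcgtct
Tie1 promoter, chr4:118489800-118490099, minus strand: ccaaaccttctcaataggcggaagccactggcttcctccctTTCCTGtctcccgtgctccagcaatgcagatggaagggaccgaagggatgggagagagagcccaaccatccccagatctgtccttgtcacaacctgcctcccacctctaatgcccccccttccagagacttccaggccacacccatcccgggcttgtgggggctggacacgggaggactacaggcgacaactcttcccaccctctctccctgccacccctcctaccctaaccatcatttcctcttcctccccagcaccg
Eng promoter, chr2:32646345-32646644, plus strand: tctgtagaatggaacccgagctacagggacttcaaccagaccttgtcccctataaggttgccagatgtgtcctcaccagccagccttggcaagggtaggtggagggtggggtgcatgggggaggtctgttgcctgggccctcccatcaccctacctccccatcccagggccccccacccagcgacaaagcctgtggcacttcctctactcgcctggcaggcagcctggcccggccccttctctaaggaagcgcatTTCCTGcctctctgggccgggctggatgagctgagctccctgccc
Cldn5 promoter, chr16:18776597-18776896, plus strand: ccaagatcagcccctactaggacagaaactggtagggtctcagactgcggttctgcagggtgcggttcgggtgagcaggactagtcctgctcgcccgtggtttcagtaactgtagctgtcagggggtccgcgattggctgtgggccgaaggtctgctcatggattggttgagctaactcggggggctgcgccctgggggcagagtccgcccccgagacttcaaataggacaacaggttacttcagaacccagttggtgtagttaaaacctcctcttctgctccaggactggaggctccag
CAGGAA was found in 4 of the 5 genes (Emcn, Tie1, Eng and Egfl7) and in 5 of their 7 windows, since Egfl7 has 3, compared with 30.6% of 32851 windows in the whole table. Emcn held the word at 2 places, Tie1 and Eng at 1 each, and Cldn5 at 0. The relative CCGGAA was in 0 of the 7 windows (14.9% of all windows), and so was the GATA word (11.2%). The SOX word was in that of Emcn only (31% of all windows). The KLF word was in 4 of the 7 windows, 1 each of Eng, Tie1, Cldn5 and Egfl7, close to its share of all windows (57.5%). No match of one family overlapped that of another. The word was thus present both in genes that fell and in Eng, and a match describes these letters and not a bound site.

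Whether the genes moved together was also examined within each genotype, from each value's deviation from its group mean. Across the 45 pairs of genes the correlation of these deviations over the 6 arrays had a median of 0.08, with 26 pairs above 0, and ranged from -0.94 (Vwf and Sparcl1) to 0.96 (Tie1 and Cldn5). Cdh5 and Emcn had 0.81, Cdh5 and Pecam1 0.80, and Pecam1 and Egfl7 -0.86. The value for Cdh5 and Pecam1 rests on wild type, where replicate 1 was low (-0.23 and -0.18) and replicate 2 high (0.17 and 0.12) for both. In St2-/- replicate 2, Cdh5 lay below its group mean (-0.13) and Pecam1 slightly above (0.02). The arrays share their normalization and leave 4 independent deviations, so these values are descriptions only. In no array did all genes deviate one way: the count above the group mean was, in order of replicate, 4, 7 and 4 of 10 in wild type and 4, 4 and 5 of 10 in St2-/-. The mean of the 10 genes was 6.47, 6.61 and 6.54 in wild type and 5.93, 5.91 and 5.92 in St2-/-.

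**Figure D2:**
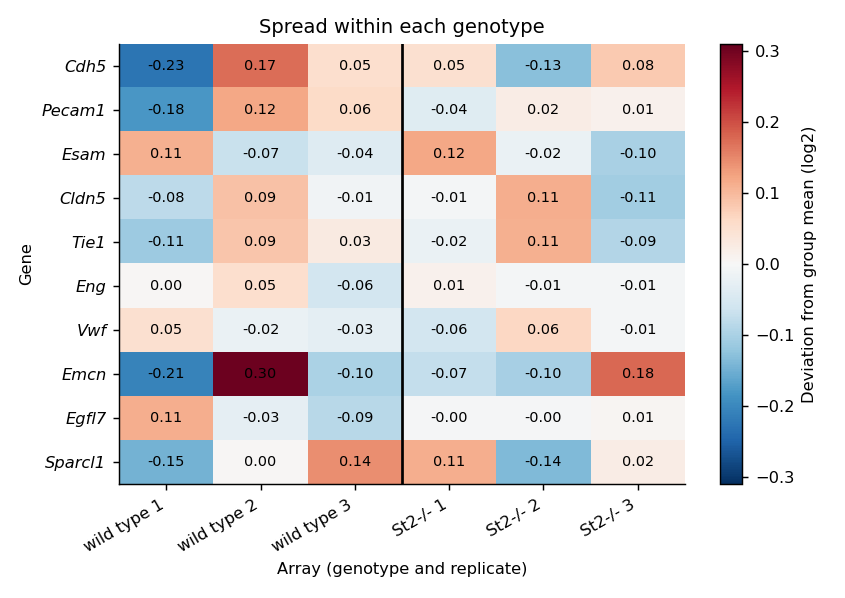
Deviation of each value from the mean of its genotype (colour and printed number, log2) for the 10 genes (rows) in the 6 arrays (columns), with a line between wild type and St2-/-. Wild type replicate 1 is low for Cdh5 (-0.23), Emcn (-0.21) and Pecam1 (-0.18) and high for Esam and Egfl7 (0.11 each), so no array shifts all genes together.

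Further endothelial genes also went in both directions. Of 38 measured genes in a list of other vascular endothelial genes, 21 were lower in St2-/- and 4 higher, and 13 were not called. The median difference of this list was -0.35, and over all genes 10% were called lower and 10.7% higher. The list includes genes of receptors for VEGF and angiopoietins, and the angiopoietin gene Angpt2. Flt1, the gene of VEGF receptor 1, which macrophages also carry, averaged 8.33 ± 0.04 in wild type and 6.31 ± 0.16 in St2-/- (SD, n = 3 each), and Angpt2, the gene of a ligand of TIE2, averaged 6.54 ± 0.03 and 5.14 ± 0.17 (SD, n = 3 each). Kdr, the gene of VEGF receptor 2, went the other way, from 6.59 ± 0.23 to 8.11 ± 0.04 (SD, n = 3 each). The differences were -2.02 for Flt1, -1.40 for Angpt2 and 1.52 for Kdr (limma adjusted p = 3.71e-07, 4.47e-06 and 8.64e-06). Ecscr, an endothelial regulator of cell movement, fell by 1.22 on the log2 scale (limma adjusted p = 4.11e-06).

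Single genes outside those with the smallest p were named after their values were seen. Beside Kdr, the called rises were those of Nostrin (0.76), which encodes a partner of endothelial nitric oxide synthase, Acvrl1 (0.74), the gene of the receptor ALK1 that works with endoglin, and Notch4 (0.28). Plvap (-1.28), the gene of a protein of endothelial fenestrae and caveolae, Ptprb (-1.28), the gene of the phosphatase VE-PTP that binds VE-cadherin, and Adgrl4 (-1.32), an adhesion receptor gene of endothelium, fell by more than 2-fold. Nos3, the gene of endothelial nitric oxide synthase, fell by 0.43 on the log2 scale. Tek, which encodes TIE2, the partner of TIE1, read 4.27 ± 0.06 in wild type and 4.20 ± 0.08 in St2-/- (SD, n = 3 each), a difference of -0.08 with an interval of -0.23 to 0.08 (limma adjusted p = 0.489). Tek lies at percentile 21.8 of mean value, among the dimmest 40% of genes. The 13 genes of this list that were not called also include bright ones such as Cd93 (percentile 95, difference 0.06).

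Genes of endothelial transcription factors differed by less. Of 15 measured, 5 were lower and 3 higher, and 7 were not called, beside 10% lower and 10.7% higher over all genes. The median difference was -0.20 and none was beyond 2-fold. Those lower included Sox17 (-0.35), a factor of arterial endothelium, the homeobox gene Meox2 (-0.37) and the ETS factor gene Erg (-0.32). Their limma adjusted p-values were 0.00763, 0.00888 and 0.0127. Sox17, Meox2 and Erg lie at percentiles 20.9, 14.1 and 36.2 of mean value, where values are nearer to background. Whether that made their falls smaller was not tested. Ets1, an ETS factor gene also active in lymphocytes, rose by 0.26 (limma adjusted p = 0.022), with adjusted p-values of 0.0619, 0.0516, 0.0711 and 0.0708 without wild type replicate 3 and St2-/- replicates 1, 2 and 3. The count of lower factors was 3 without wild type replicate 1 or 2. The count of higher factors was 1 without St2-/- replicate 1 and 0 when wild type replicate 3, or replicate 2 or 3 of St2-/-, was left out.

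Lymphatic endothelial genes had 3 of 7 members lower and 4 not called, beside 10% lower over all genes. The median difference was -0.07, against -0.02 over all genes. The 4 not called, Prox1, Flt4, Mmrn1 and Reln, are all among the dimmest 40% of genes. Lyve1, a hyaluronan receptor that some macrophages also express, averaged 8.12 ± 0.06 in wild type and 5.66 ± 0.20 in St2-/- (SD, n = 3 each), a difference of -2.46 (limma adjusted p = 2.24e-07). Pdpn, the gene of podoplanin, which other stromal cells and macrophages also make, and Nr2f2, a factor gene of venous and lymphatic cells, differed by -0.86 and -0.99 (limma adjusted p = 2.25e-05 and 3.71e-05). Prox1, the master regulator of lymphatic endothelium, was named after its values were seen: it averaged 4.15 ± 0.15 and 4.08 ± 0.13 (SD, n = 3 each), and its difference of -0.07 was not called (limma adjusted p = 0.662). The VEGF-C receptor gene Flt4 differed by 0.12 and was not called either (limma adjusted p = 0.283).

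**Figure D3:**
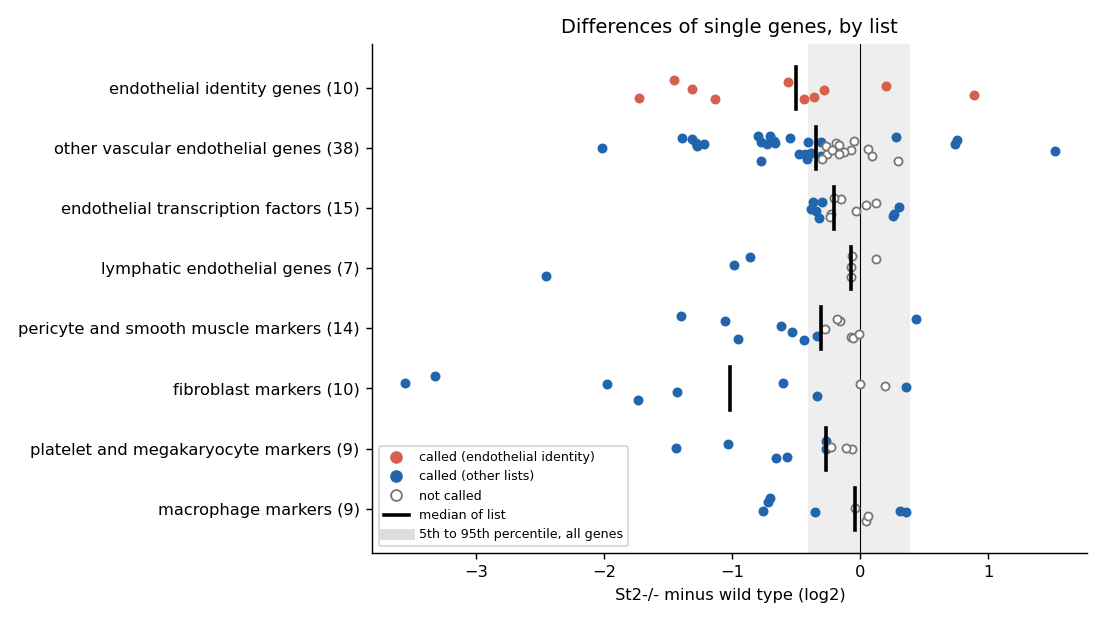
Difference St2-/- minus wild type (x axis, log2) of each measured gene in the endothelial lists and in the lists of other cell types (rows, with the number of measured genes), filled where called and open where not, with a black line at the median of each list and a grey band from the 5th to the 95th percentile of all genes (-0.40 to 0.38). The endothelial identity genes lie between -1.73 and 0.89 with a median of -0.50, and the fibroblast markers reach -3.56.

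Markers of other cells moved with genotype beside the endothelial genes. Over all genes, 10% were called lower and 10.7% higher. In a separate fit with the dimmest 40% left out, 37.7% of genes were called. That fit estimated its variance and adjusted its p-values over fewer genes, so its share is not that of bright genes in the counts here. Of the fibroblast and macrophage markers, 0 are among those dim genes. Of 14 pericyte and smooth muscle markers 7 were lower, 1 higher and 6 not called (median -0.31), and the mean of the list ranged from 6.17 to 6.19 in wild type and from 5.74 to 5.80 in St2-/-. The pericyte genes Pdgfrb (-1.40), Cspg4 (-1.06), Notch3 (-0.96) and Abcc9 (-0.53) were those with the smallest p (limma adjusted p from 3.78e-06 to 0.000532). Others were named after their values were seen. Cox4i2 was the called rise (0.43, limma adjusted p = 0.0123), and Acta2, Des, Myh11, Tagln, Higd1b and Ndufa4l2 were not called. Of 10 fibroblast markers 7 were lower, 1 higher and 2 not called (median -1.02), with list means of 8.06 to 8.10 in wild type and 6.78 to 6.88 in St2-/-. The matrix genes Lum (-3.56), Dcn (-3.33), Bgn (-1.98) and Sparc (-1.43) were those with the smallest p (limma adjusted p from 9.27e-09 to 9.28e-07). Col1a2 was the called rise (0.35, limma adjusted p = 0.00531), and Postn (0.19) and Thy1 (-0.01) were not called. Sparc is a relative of Sparcl1.

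Platelet genes were examined because platelets also carry von Willebrand factor, ESAM and PECAM-1. Of 9 measured platelet and megakaryocyte markers 6 were lower and 0 higher, and 3 were not called, beside 10% lower and 10.7% higher over all genes. The median was -0.27, with list means of 5.98 to 6 in wild type and 5.46 to 5.49 in St2-/-. The chemokine genes Ppbp (-1.44) and Pf4 (-1.03), the integrin gene Itgb3 (-0.66) and the glycoprotein gene Gp9 (-0.57) fell and were those with the smallest p (limma adjusted p from 1.79e-05 to 0.00388). The rest were named after their values were seen. Treml1 and Tubb1 fell less (-0.27 each), and Itga2b (-0.23), Clec1b (-0.11) and Gp5 (-0.06) were not called. Of 9 macrophage markers 4 were lower, 2 higher and 3 not called (median -0.04), with list means of 11.23 to 11.29 in wild type and 11.02 to 11.08 in St2-/-. Among them Lyz2 (-0.71), a lysozyme gene, fell, as did Mertk (-0.72) and Msr1 (-0.76), receptor genes of uptake, and the Fc receptor gene Fcgr1 (0.36) rose (limma adjusted p from 2.99e-05 to 0.00272). The other called rise was Adgre1 (0.31), and the other called fall was Cd14 (-0.35). RMA values have no true zero and no detection call was made, so no marker of these lists was called present or absent. The part of pericytes, fibroblasts, platelets and macrophages in the endothelial differences was not tested.

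The mean profile of the 10 genes over the 6 arrays, each gene centred on its own mean, was compared with every gene outside the lists. The 5 genes most like it were Six4, a homeobox gene (Pearson r 0.9993, difference -1.25), Baiap2, an adaptor gene of the actin cytoskeleton (0.9988, -0.58), the inflammasome gene Nlrp1a (0.9988, -1), Esm1, which encodes endocan, a proteoglycan secreted by endothelial cells (0.9988, -0.84), and Mid2, a ubiquitin ligase gene (0.9987, -1.08). All 5 were called lower (limma adjusted p from 2.48e-06 to 0.000195). Esm1 averaged 5.73 ± 0.09 in wild type and 4.88 ± 0.02 in St2-/- (SD, n = 3 each). The 6 arrays form 2 groups, and 861 of the 19938 genes had an r above 0.95 with this profile. Of the 10 genes themselves, which enter the mean, the 8 that fell had r between 0.868 (Esam) and 0.996 (Cdh5), and Pecam1 and Eng had -0.947 and -0.923. Nlrp1a has near-identical relatives that the probes may not tell apart.

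The size and direction of each difference were recomputed under the alternative settings. Only median centring and cyclic loess could have changed a sign, and no gene of the 10 changed sign in them. The other settings left the difference unchanged, or only weighted or left out arrays. As the groups of all 10 genes did not overlap, the sign was fixed there. Vwf, Pecam1, Cdh5, Tie1, Emcn, Egfl7 and Sparcl1 were called in each setting in which they were tested. Cdh5 ranged from -1.57 to -1.37 and Pecam1 from 0.80 to 0.98.

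**Figure D4:**
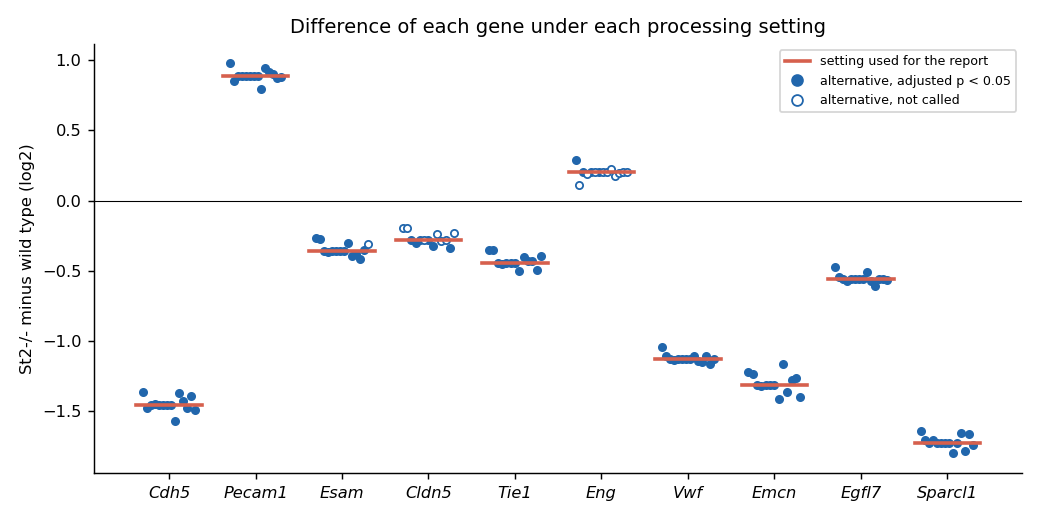
Difference St2-/- minus wild type (y axis, log2) of the 10 genes (x axis) in the setting used for the report (red line) and in each alternative (blue points, filled where the adjusted p was under 0.05 and open where it was not). Open points occur in Eng (10 of 14 alternatives), Cldn5 (7 of 13) and Esam (1 of 14). In every gene all points lie on the same side of 0 as the red line, which only median centring and cyclic loess could have changed.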

How the data were processed

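Expression was measured on Affymetrix Gene 1.0 ST arrays, 1 per sample, per the labels' protocols. The authors deposited RMA values, per the submitters' processing notes. That method subtracts background, makes the arrays' distributions equal and combines the probes of a set, which hides any shift common to most genes. Neither its version nor the log base is stated, and the deposited values were taken as log2 from their range. Of 35556 probe sets the platform table paired 21789 with 1 symbol, and a gene with several was represented by its brightest (highest mean of 6 arrays; 19938 genes). All 10 gene identifiers matched RefSeq.

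Differences were tested with limma 3.58.1 (R 4.3.3; lmFit, eBayes, two-sided, Benjamini-Hochberg over all genes), which was tested on simulated data. There 5.7% of changes of 0.25, 62.4% of 0.5 and 96.5% of 1 (log2) were called, and 3.68% of calls were false. Fewer genes were changed there than were called here, so these shares need not hold for these arrays. The number of arrays limits the precision. Named are the 10 genes, up to 4 genes of each of 7 other lists with the smallest p, and the 5 most similar genes, with additions marked. The members and lists were chosen with earlier results of these data known. Alternatives were another scaling (median centring or cyclic loess), a trended robust variance prior, array weights, averaging probe sets, testing all rows, leaving out the dimmest 40% of genes, a replicate block, and leaving out each array.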

Additional observations from a re-analysis of the deposited data

How the results depend on the processing

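The 10 endothelial genes kept their direction under median centring and cyclic loess, the alternatives that could have changed it. Of 456 values of the other genes named by rule, 452 kept their call, the other 4 being the losses of Ets1. Eng lost its call after cyclic loess (0.11), with array weights (0.19) and with all rows tested (0.20), and without single arrays its difference ranged from 0.17 to 0.23. Cldn5 lost it after median centring (-0.19), after cyclic loess (-0.20) and with all rows tested (-0.28), and without single arrays ranged from -0.34 to -0.23. Esam ranged from -0.42 to -0.30 without single arrays. Called endothelial genes that were higher numbered 1 in place of 2 after cyclic loess, with array weights, with all rows tested and in each fit that left out an array (1 to 1). Leaving out the dimmest 40% of genes removed Tie1, Cldn5 and Emcn, and 5 genes were lower. Transcription factor genes called lower numbered 3 after median centring, after cyclic loess and with all rows tested, and 3 to 5 without single arrays. Those called higher numbered 1 after cyclic loess and with all rows tested, and 0 to 3 without single arrays. Fibroblast markers called higher numbered 2 after median centring, after cyclic loess and without dim genes.

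Median centring moved the median difference of all genes from -0.02 to 0.07 and gave 3686 higher and 1294 lower calls, so that 74% of calls were higher in place of 51.7%. With the replicate number as a block, which the data did not bear out as a pairing (correlations of deviations 0.012, -0.012 and -0.048), 17.9% of genes were called, Eng had a difference of 0.20 with a limma adjusted p of 0.0873 and was not called, 1 endothelial gene was called higher, and 1 transcription factor gene was called higher. Tie1, Cldn5 and Emcn are among the dimmest 40% of genes, as are the factor genes Sox17, Meox2 and Erg. Values of such genes lie nearer to background.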
